A study of Mus musculus with 6 samples.

Results

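The genes described here are the ligands, receptors, signal transducers and antagonists of the bone morphogenetic protein (BMP) and transforming growth factor beta (TGF-β) families, followed in mouse osteoclasts that carry floxed alleles of the chloride channel gene *Ano1*, with and without a Cre recombinase. They were taken by name, from the symbols on the array. Symbols that start with *Bmp*, *Gdf*, *Tgfbr*, *Smad*, *Fstl* or *Ltbp* and a digit were taken, and those that start with *Bmpr*, *Acvr* or *Inhb*. Also taken were *Tgfb1* to *Tgfb3*, *Grem1*, *Nog*, *Fst*, *Bambi*, *Twsg1*, the chordin genes and *Id1* to *Id4*. The rule gave 71 of the 37074 gene names on the array, covered by 125 probes. Bone marrow cells came from 3 *Ano1fl/fl* mice, whose *Ano1* alleles are flanked by loxP sites, and from 3 *Ctsk-Cre;Ano1fl/fl* littermates, which carry the same floxed alleles and a Cre recombinase expressed from the cathepsin K promoter. Both groups were treated for 5 days with RANKL, which turns marrow precursors into osteoclasts. The general osteoclast protocol of the methods names mice of 6 to 8 weeks, collection of suspension cells after 1 day of culture, and induction with 50 ng/ml RANKL and 30 ng/ml M-CSF. The reporting summary gives a C57/BL6 background for most of the lines. RNA from each culture was hybridised to 1 of 6 one-colour Agilent arrays.

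Ligands of this superfamily are secreted dimers that bring type I and type II serine/threonine kinase receptors together on the cell surface. The type I receptor then phosphorylates receptor-regulated Smads, with Smad2 and Smad3 mostly downstream of TGF-β and activin and Smad1, Smad5 and Smad9 downstream of BMPs, and these enter the nucleus with Smad4. Secreted antagonists such as gremlin, noggin and follistatin hold ligands away from their receptors, latent TGF-β binding proteins store TGF-β in the matrix, and the inhibitory Smads and the Id proteins are targets that the pathway itself induces. In bone these factors are released from the matrix during resorption and act on osteoblasts and on osteoclast precursors alike.

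*Ano1* had 1 probe, whose processed signal was 3.28, 3.22 and 3.91 on the *Ano1fl/fl* arrays against 3.23, 3.25 and 3.81 on the *Ctsk-Cre;Ano1fl/fl* arrays. It was well above background on 0 of the 6 arrays, so the genotype of an array is known from its label only, and every direction below is that of the labels. Of the 12 osteoclast markers on the list, 11 were higher and 1 lower on the *Ctsk-Cre;Ano1fl/fl* arrays, and the sum of their signals ran from 157500 to 170300 on the *Ano1fl/fl* arrays and from 514100 to 579600 on the *Ctsk-Cre;Ano1fl/fl* arrays. This direction is opposite to the one the study gives for osteoclast markers in osteoclasts of these genotypes, so the sign of each difference holds for the labels of the arrays. Of the 20 stromal and osteoblast markers, 18 were tested, 14 were higher and 2 lower, with a summed signal of 23930 to 26150 on the *Ano1fl/fl* arrays against 92960 to 136300 on the *Ctsk-Cre;Ano1fl/fl* arrays. In this list 4 genes were not well above background on any *Ano1fl/fl* array, namely *Pdgfra*, *Lum*, *Bglap* and *Twist1*. All 4 megakaryocyte markers and 5 of 8 tested neutrophil markers were lower, and their summed signals went from 123400 to 141000 down to 53260 to 62000 and from 302800 to 317900 down to 202400 to 254500. These markers moved on the same arrays as the rises and falls reported for the members, and their part in them was not tested. Each array holds the RNA of a whole culture, so fewer cells of a type and less RNA per cell cannot be told apart.

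Signals are given as quantile normalised log2 values of the probe that stands for a gene, which allows a gene to be compared between arrays but not with another gene. To be tested, a member had to be well above background throughout 1 group or both, which 49 of the 71 were. Of the other 22, *Bmp5* was above background on 1 array and 21 on none. Among the 49, 24 were higher and 4 lower on the *Ctsk-Cre;Ano1fl/fl* arrays at a limma adjusted p under 0.05, which is 49.0% and 8.16% of them, while over all 20645 genes tested 23.4% were higher and 29.0% lower. Past 2-fold, 18 members were higher and 2 lower (36.7% and 4.08%), against 9.88% and 7.19% of all genes. Without *Ano1fl/fl* replicate 2 or 3 or *Ctsk-Cre;Ano1fl/fl* replicate 1 or 3, each left out alone, 2 members were lower in place of 4, beside 23.62% to 25.38% of all genes. Without *Ano1fl/fl* replicate 2 or 3 only *Gdf3* was lower by more than 2-fold. The groups did not overlap in 32 of the 49 members, or 65.3%, and in 64.0% of all genes. The median log2 difference was 0.26 over the members and -0.06 over all genes tested. In all, 4 members, *Tgfb2*, *Inhbe* and *Fst* among them, passed the filter only through the arrays on which they were high, which favours a difference by itself, so their p-values are no separate support. With the filter set to all 6 arrays, 45 members were left, of which 21 were higher and 4 lower, and their median was 0.18. Over all genes that filter gave 22.21% higher, 29.51% lower and a median of -0.06.

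**Figure D1:**
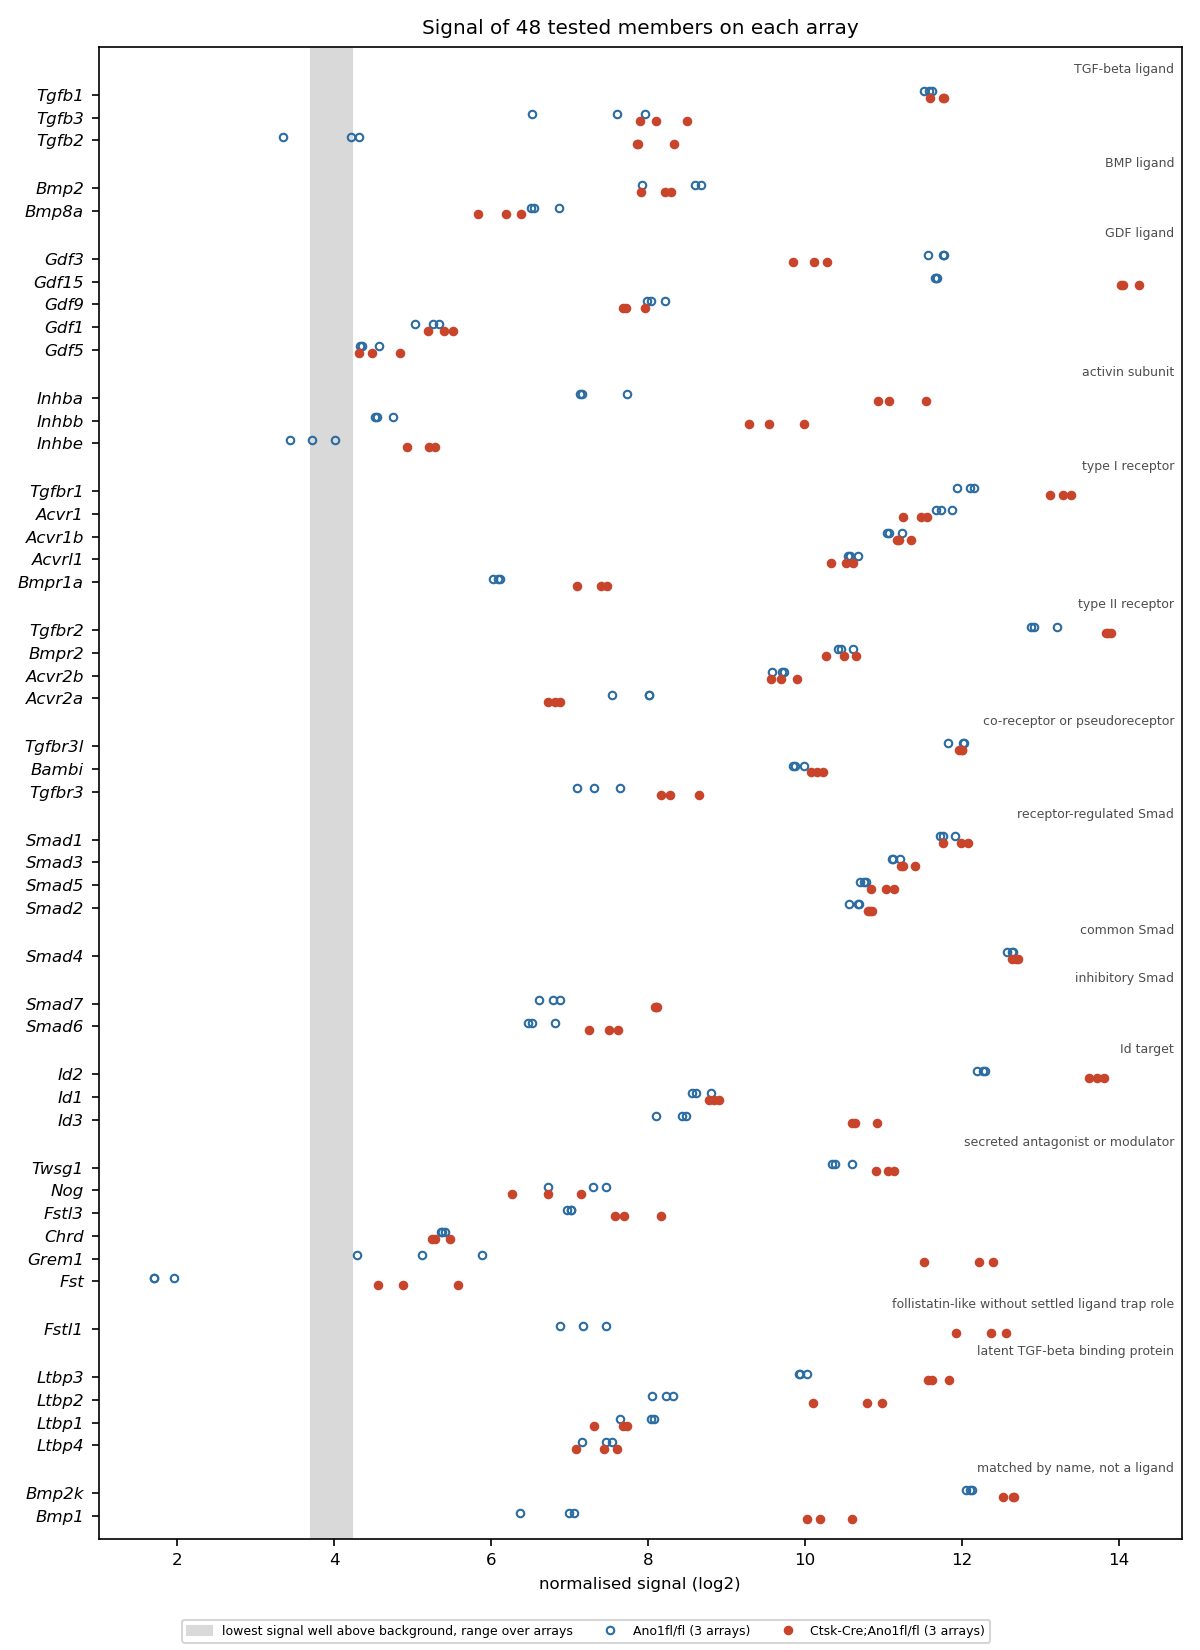
Normalised log2 signal (x axis) of 48 of the 49 tested members (rows, grouped by role) on the 3 Ano1fl/fl arrays (open circles) and the 3 Ctsk-Cre;Ano1fl/fl arrays (filled circles); the grey band is the range over arrays of the lowest signal well above background, 3.70 to 4.22. The groups are far apart for Grem1, Fstl1, Inhbb and Tgfb2 and lie close together for the receptor-regulated Smads and Smad4.

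Of the 3 TGF-β genes, 1 was called higher and the others were not called. *Tgfb2* (mm9 chr1:188449333-188449392) had log2 signals of 3.35, 4.31 and 4.22 on the *Ano1fl/fl* arrays against 8.33, 7.86 and 7.88 on the *Ctsk-Cre;Ano1fl/fl* arrays. All 3 *Ctsk-Cre;Ano1fl/fl* arrays lay above the other group, in which 2 arrays were well above background. The log2 difference was 4.07 with standard error 0.28 (limma adjusted p = 0.000124). It was smaller, 2.03 and 2.60, with normexp background correction, which adds an offset of 50, and with the series matrix values, from which no background was subtracted. A second *Tgfb2* probe, below background on every *Ano1fl/fl* array, was at least 4.35-fold higher on the *Ctsk-Cre;Ano1fl/fl* arrays.

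*Tgfb1*, the isoform stored in greatest amount in bone matrix, read 11.58, 11.61 and 11.52 against 11.77, 11.75 and 11.59. These ranges overlapped, and the difference of 0.13 did not pass the test (standard error 0.08, limma adjusted p = 0.203). For *Tgfb3* the *Ano1fl/fl* arrays were spread widely, at 6.52, 7.96 and 7.60, and the *Ctsk-Cre;Ano1fl/fl* arrays read 8.50, 8.09 and 7.89. With that spread its difference of 0.80 (standard error 0.38) was not called either (limma adjusted p = 0.125).

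Of the 10 BMP ligand genes, *Bmp2* and *Bmp8a* were tested, and *Bmp3*, *Bmp4*, *Bmp5*, *Bmp6*, *Bmp7*, *Bmp8b*, *Bmp10* and *Bmp15* were not. *Bmp2*, which drives bone formation, had signals of 7.92, 8.60 and 8.67 on the *Ano1fl/fl* arrays against 7.91, 8.30 and 8.21 on the *Ctsk-Cre;Ano1fl/fl* arrays. The groups overlapped, and its difference of -0.26 was not called (standard error 0.22, limma adjusted p = 0.371). Without *Ano1fl/fl* replicate 1, the lowest of its group, it was -0.50 and passed (limma adjusted p = 0.0348). *Bmp8a*, named here because so few members were lower, was at 6.55, 6.50 and 6.87 against 6.18, 6.38 and 5.83. Its difference was -0.51 (standard error 0.17, limma adjusted p = 0.0457), and this call was lost when any array other than *Ctsk-Cre;Ano1fl/fl* replicate 2 was left out.

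Among the 10 growth and differentiation factor genes, 5 were tested, 1 of them higher and 1 lower. *Gdf3*, a ligand that can also bind BMPs and block them, had the largest fall of any member's brightest probe. It went from 11.77, 11.76 and 11.56 to 10.28, 10.11 and 9.84 (mm9 chr6:122556340-122556399). Every *Ctsk-Cre;Ano1fl/fl* array was below every *Ano1fl/fl* array, by -1.62 on the log2 scale (standard error 0.13, limma adjusted p = 0.000216), or 3.07-fold lower. Its second probe fell as well, by 1.36 on the log2 scale.

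*Gdf15*, a stress-induced member that signals through a receptor of its own, GFRAL, rose from 11.67, 11.68 and 11.65 to 14.05, 14.25 and 14.02 (mm9 chr8:73153293-73153352). The *Ano1fl/fl* arrays were almost level, and the difference of 2.44 (standard error 0.08, limma adjusted p = 1.36e-05) corresponds to 5.44-fold. *Gdf9*, *Gdf1* and *Gdf5* were not called, with differences of -0.29, 0.16 and 0.12, and *Gdf2*, *Gdf6*, *Gdf7*, *Gdf10* and *Gdf11* were below background on all 6 arrays.

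All 3 tested activin subunit genes were higher. *Inhba*, whose product forms activin A as a dimer, had signals of 7.73, 7.13 and 7.16 on the *Ano1fl/fl* arrays against 11.54, 11.06 and 10.93 on the *Ctsk-Cre;Ano1fl/fl* arrays (mm9 chr13:16118634-16118693). The groups lay far apart, by 3.84 on the log2 scale with standard error 0.23 (limma adjusted p = 7.16e-05), or 14.3-fold. *Inhbb*, which forms activin B, read 4.74, 4.52 and 4.55 against 9.98, 9.54 and 9.28 (mm9 chr1:121312160-121312219). Its low *Ano1fl/fl* signals were all well above background, and the log2 difference came to 5.00 (standard error 0.18, limma adjusted p = 1.62e-05). With normexp it was 3.25 and with the series matrix values 3.81. *Inhbe*, a subunit known best from liver, was below background on the *Ano1fl/fl* arrays, at 4.02, 3.71 and 3.44, and read 4.93, 5.21 and 5.28 on the *Ctsk-Cre;Ano1fl/fl* arrays. It was at least 2.25-fold higher (limma adjusted p = 0.000970) with the processed signals, a bound not met with normexp (0.39 on the log2 scale) or the series matrix values (0.58). *Inhbc* was below background throughout.

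Receptor genes were called in both directions. *Tgfbr1*, the type I receptor for TGF-β, rose from 11.93, 12.10 and 12.15 to 13.11, 13.38 and 13.28 without overlap. Its difference was 1.20 with standard error 0.10 (limma adjusted p = 0.000264), but 2 further probes gave smaller differences, 0.65 and 0.66, that did not pass the test over probes. *Bmpr1a*, a type I receptor for BMPs, rose from 6.09, 6.11 and 6.03 to 7.40, 7.47 and 7.10. That is a difference of 1.25 (standard error 0.11, limma adjusted p = 0.000318), and its second, dim probe gave 0.55 and was not called. The *Bmpr1a* difference was 0.78 with normexp, 0.96 with the series matrix values and 0.90 with the mean of its probes, each under 2-fold.

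*Acvr1*, which encodes the BMP and activin type I receptor ALK2, was the only type I receptor called lower. Its signals were 11.67, 11.87 and 11.72 on the *Ano1fl/fl* arrays against 11.48, 11.55 and 11.25 on the *Ctsk-Cre;Ano1fl/fl* arrays. These groups were close without overlapping, and the difference of -0.33 (standard error 0.11, limma adjusted p = 0.0409) lost its call when any array other than *Ctsk-Cre;Ano1fl/fl* replicate 2 was left out. *Acvr1b* and *Acvrl1* were not called, at 0.12 and -0.11, and *Bmpr1b* and *Acvr1c* were below background on every array.

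All 4 type II receptor genes were tested. *Tgfbr2*, which binds TGF-β and recruits Tgfbr1, had signals of 13.21, 12.92 and 12.88 on the *Ano1fl/fl* arrays against 13.86, 13.84 and 13.90 on the *Ctsk-Cre;Ano1fl/fl* arrays. The difference of 0.86 (standard error 0.10, limma adjusted p = 0.000950) was larger than the spread within either group. *Acvr2a*, an activin and BMP type II receptor, went the other way, from 7.54, 8.01 and 8.01 to 6.88, 6.73 and 6.81. It fell by 1.05 on the log2 scale (standard error 0.14, limma adjusted p = 0.00171). Its other probes were lower too, one with a difference of -0.63 and one, for the transcript AK050252, at least 2.31-fold lower and below background on all *Ctsk-Cre;Ano1fl/fl* arrays. *Acvr2b* was at 0.04 and was not called.

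*Bmpr2*, the type II receptor for BMPs, differed between its probes. The probe that stands for the gene read 10.42, 10.46 and 10.61 against 10.49, 10.65 and 10.27, a difference of -0.02 that was not called (standard error 0.12, limma adjusted p = 0.874) but with the mean of its probes it was 0.74 and was called higher (limma adjusted p = 0.00618). A dimmer probe, for another transcript, read 5.14, 5.01 and 5.26 against 6.16, 7.04 and 6.73 and rose by 1.51 on the log2 scale. The first 30 bases of both probes, 5′ to 3′ and all in lower case as the array files hold them, are given with the mm9 positions of the whole probes to show that they lie apart in the gene.
Bmpr2, probe for NM_007561, chr1:59934262-59934321: gaacgctgacattaagccactcaagagttt
Bmpr2, probe for ENSMUST00000190659, chr1:59907509-59907567: agtcaggagtttagctatatagagaccatc

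Of the co-receptors, *Tgfbr3*, which encodes betaglycan and presents TGF-β2 to its receptors, rose from 7.09, 7.31 and 7.64 to 8.64, 8.28 and 8.17. The groups did not overlap, and its difference was 1.02 with standard error 0.18 (limma adjusted p = 0.00464). *Bambi*, a pseudoreceptor that lacks a kinase domain, was higher by 0.25 (standard error 0.08, limma adjusted p = 0.0342), going from 9.98, 9.87 and 9.85 to 10.08, 10.23 and 10.15. The call was lost with 75th percentile scaling, with replicate number as a block in the fit, and without replicate 2 or 3 of either group. *Tgfbr3l* had signals of 12.03, 12.01 and 11.82 against 11.96, 12.00 and 11.99 and a difference of 0.03 (limma adjusted p = 0.786), which was -0.06 with 75th percentile scaling.

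**Figure D2:**
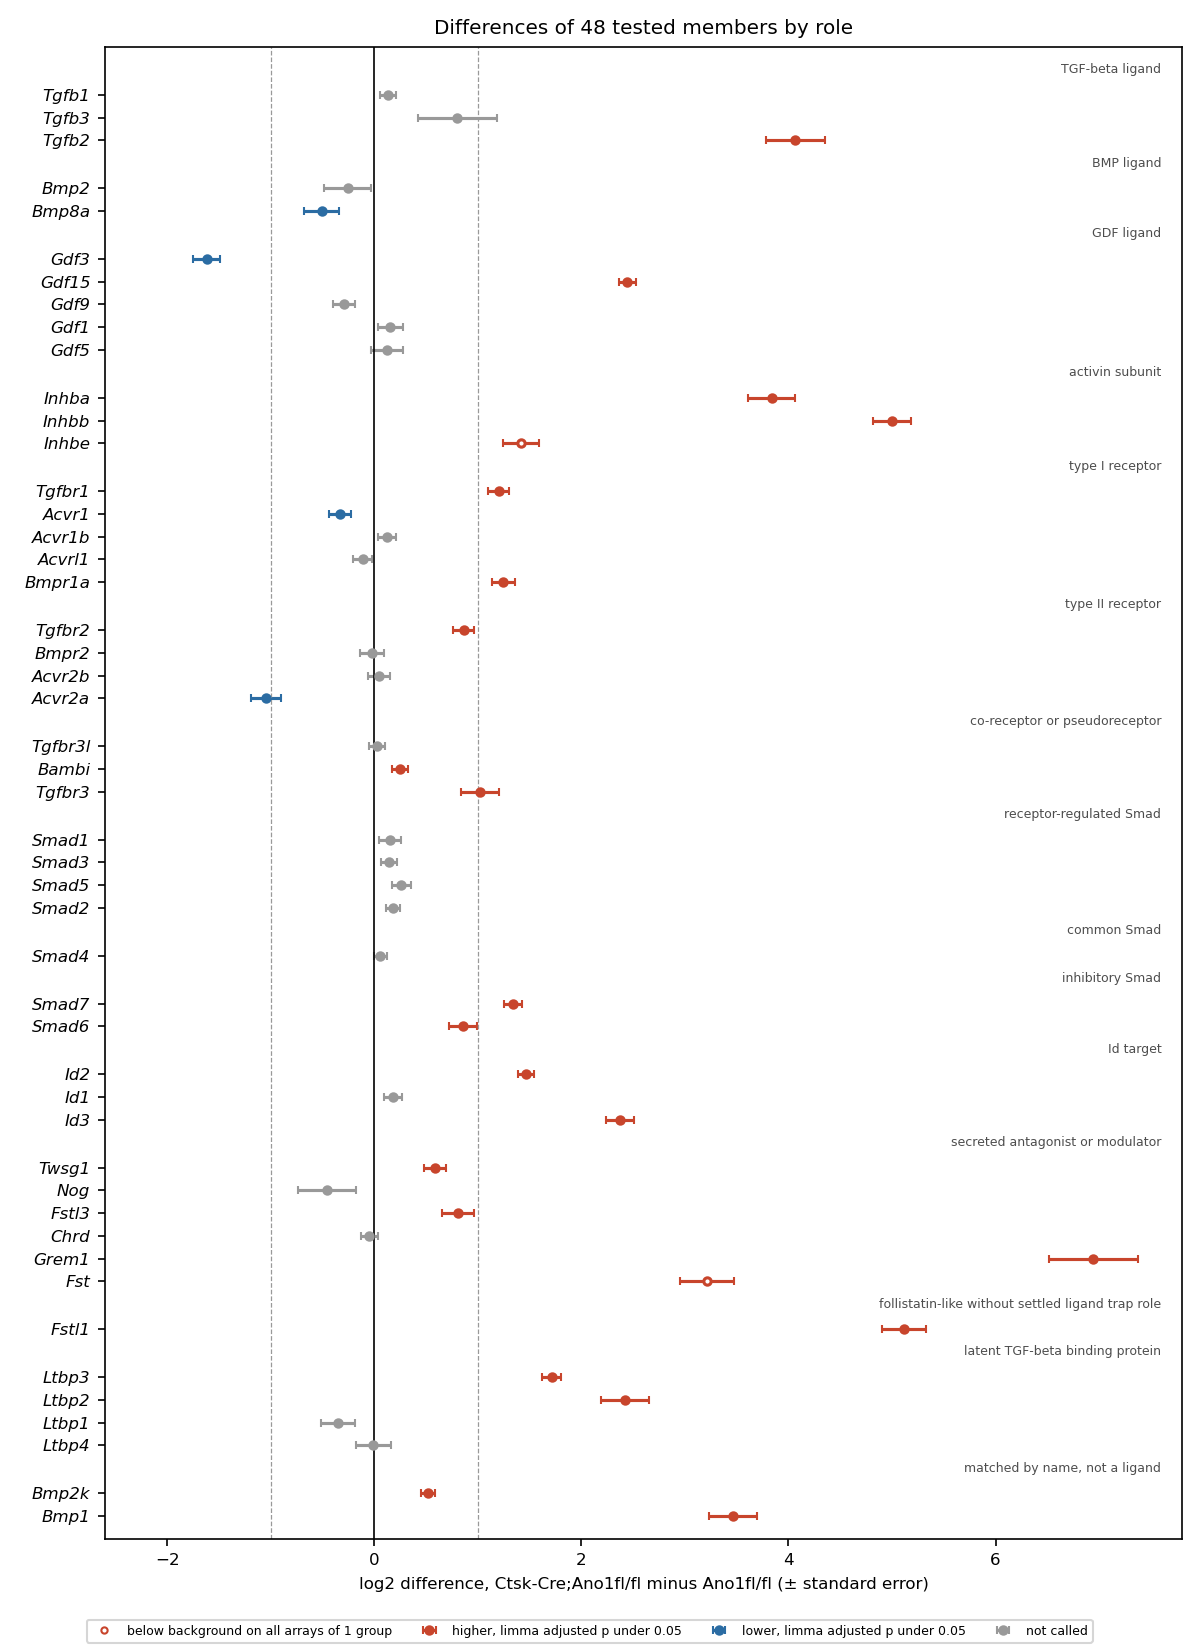
Log2 difference, Ctsk-Cre;Ano1fl/fl minus Ano1fl/fl, with its standard error from limma (x axis) for 48 of the 49 tested members (rows, by role), 3 arrays a group; dashed lines mark 2-fold. Open points are members below background on all arrays of 1 group, whose fitted difference is no bound. Among the others the differences run from -1.62 for Gdf3 to 6.94 for Grem1, and the receptor-regulated and common Smads lie between 0.06 and 0.26.

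Within the cell, neither *Smad4* nor any of the 4 tested receptor-regulated Smads was called. *Smad1*, which acts for BMPs, read 11.91, 11.71 and 11.75 against 11.76, 12.07 and 11.99, with a difference of 0.15 (standard error 0.11, limma adjusted p = 0.282). *Smad3*, which acts for TGF-β and activin, was at 0.14 (standard error 0.08, limma adjusted p = 0.162), although its *Ano1fl/fl* arrays, 11.20, 11.12 and 11.10, lay below the 11.23, 11.24 and 11.39 of the other group. *Smad4*, the common partner, was at 0.06 (standard error 0.06, limma adjusted p = 0.471) and at -0.03 with 75th percentile scaling.

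*Smad2* and *Smad5* were close to the threshold. *Smad2* had signals of 10.67, 10.68 and 10.56 against 10.80, 10.85 and 10.82, so the groups did not overlap at a difference of 0.18 (standard error 0.07, limma adjusted p = 0.0631). *Smad5* had 10.78, 10.70 and 10.74 against 11.03, 11.13 and 10.84, a difference of 0.26 (standard error 0.09, limma adjusted p = 0.0550). Both passed with normexp background correction, with the series matrix values and with limma's trend and robust settings. *Smad2* also passed with the methods' t-test, without a filter and with the mean of its probes (adjusted p = 0.0326, 0.0395 and 0.0404). *Smad5* also passed with the filter on all 6 arrays (limma adjusted p = 0.0495) and without *Ctsk-Cre;Ano1fl/fl* replicate 3 (limma adjusted p = 0.0219). *Smad9* was below background on all 6 arrays.

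Both inhibitory Smads rose. *Smad7*, which blocks TGF-β and BMP receptors, went from 6.88, 6.79 and 6.61 to 8.11, 8.10 and 8.08. Its difference was 1.34 with standard error 0.09 (limma adjusted p = 9.53e-05), and a second probe gave 0.91, also called. *Smad6*, which acts mainly on BMP receptors, went from 6.81, 6.52 and 6.47 to 7.61, 7.50 and 7.25. The groups stayed apart, by 0.85 (standard error 0.13, limma adjusted p = 0.00283).

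The Id genes, helix-loop-helix factors whose transcription BMPs induce, had 2 of 3 tested members higher. *Id3* rose from 8.43, 8.49 and 8.11 to 10.91, 10.63 and 10.59, a difference of 2.37 (standard error 0.14, limma adjusted p = 6.89e-05), or 5.18-fold. *Id2* rose from 12.19, 12.26 and 12.29 to 13.61, 13.81 and 13.72, a difference of 1.47 (standard error 0.08, limma adjusted p = 5.13e-05), and its second probe rose by 0.83. *Id1*, the Id gene used most often as a readout of BMP signalling, read 8.56, 8.80 and 8.61 against 8.84, 8.90 and 8.78. Its groups overlapped, and the difference of 0.18 was not called (standard error 0.09, limma adjusted p = 0.126). *Id4* was below background on all arrays and was not tested.

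Smads bind short DNA elements, so the promoters of *Id2*, *Id3* and *Smad6*, as targets that rose, and of *Grem1*, as the member with the largest rise measured in both groups, are shown from RefSeq (GRCm38.p6). Promoter windows, from 250 bases before the gene start to 50 after it, were found for 50 of the 71 members, *Id1* and *Smad7* not among them. They were searched on both strands for CAGAC, the core that Smad3 and Smad4 bind, for GGCGCC, a GC-rich element bound by BMP Smads, and for the palindrome GTCTAGAC. CAGAC stood in 25 of the 50 windows (50%) and in 49.7% of all 27025 promoters, GGCGCC in 13 (26%) and in 12% of all, and GTCTAGAC in 1 and in 0.211% of all. Of the 18 higher members with a window, 10 held CAGAC, 5 GGCGCC and 1 GTCTAGAC. A match describes letters in a window and not a binding site. The first 280 bases of 4 windows are printed 5′ to 3′ on the strand of the gene, with matches in capitals on either strand, and no motifs overlap in them.
Id2, chr12:25096063-25096342, strand minus: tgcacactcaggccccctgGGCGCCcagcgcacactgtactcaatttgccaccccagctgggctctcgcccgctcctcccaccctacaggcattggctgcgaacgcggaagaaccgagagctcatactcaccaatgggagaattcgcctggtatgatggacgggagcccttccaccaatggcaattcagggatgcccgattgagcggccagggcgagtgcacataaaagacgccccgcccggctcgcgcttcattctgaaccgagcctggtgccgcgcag
Id3, chr4:136143572-136143851, strand plus: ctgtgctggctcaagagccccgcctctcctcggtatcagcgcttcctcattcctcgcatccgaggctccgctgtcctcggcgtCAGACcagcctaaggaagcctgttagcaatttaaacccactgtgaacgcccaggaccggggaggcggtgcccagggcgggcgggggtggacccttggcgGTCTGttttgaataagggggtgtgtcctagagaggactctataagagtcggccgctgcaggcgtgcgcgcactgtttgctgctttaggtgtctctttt
Smad6, chr9:64022030-64022309, strand minus: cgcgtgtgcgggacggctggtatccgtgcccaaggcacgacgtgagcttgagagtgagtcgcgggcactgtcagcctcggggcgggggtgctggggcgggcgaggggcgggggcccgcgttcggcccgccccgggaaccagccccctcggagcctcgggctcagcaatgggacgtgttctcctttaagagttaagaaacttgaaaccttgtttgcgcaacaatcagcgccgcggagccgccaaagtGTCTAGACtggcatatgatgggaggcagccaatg
Grem1, chr2:113758619-113758898, strand minus: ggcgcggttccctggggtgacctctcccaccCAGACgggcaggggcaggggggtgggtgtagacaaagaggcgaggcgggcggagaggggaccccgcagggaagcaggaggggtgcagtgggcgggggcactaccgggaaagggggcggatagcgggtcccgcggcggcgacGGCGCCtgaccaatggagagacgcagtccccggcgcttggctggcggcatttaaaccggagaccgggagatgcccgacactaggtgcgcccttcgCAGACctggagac
The printed *Id2* stretch holds GGCGCC starting 231 bases before the gene start. In *Id3*, CAGAC starts 167 bases before it, and its reverse complement GTCTG 68 bases before it. *Smad6* is the member with GTCTAGAC, which starts 4 bases before the gene start and spans it. *Grem1* holds GGCGCC at 78 bases and CAGAC at 219 bases before the start, with another CAGAC just after it.

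The largest rise among members measured in both groups was that of a secreted antagonist. *Grem1*, which encodes gremlin 1 and binds BMP2, BMP4 and BMP7, had log2 signals of 5.88, 5.12 and 4.30 on the *Ano1fl/fl* arrays against 12.22, 12.40 and 11.51 on the *Ctsk-Cre;Ano1fl/fl* arrays (mm9 chr2:113589227-113589286). All 6 values were well above background, and although the *Ano1fl/fl* arrays were spread widely (5.10 ± 0.79, SD, n = 3) the other group lay far above them (12.04 ± 0.47, SD, n = 3). The difference was 6.94 with standard error 0.43 (limma adjusted p = 8.52e-05), or 123-fold. With normexp it was 5.43 and with the series matrix values 5.96, so the fold depended on how background was treated.

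*Fst*, which encodes the activin-binding protein follistatin, was below background on the *Ano1fl/fl* arrays, at 1.96, 1.71 and 1.71, and read 5.58, 4.88 and 4.56 on the *Ctsk-Cre;Ano1fl/fl* arrays. It was at least 2.05-fold higher (limma adjusted p = 0.000216) with the processed signals, but the difference was 0.56 with normexp and 0.95 with the series matrix values, both under that bound. *Fstl3*, a related activin antagonist, rose from 6.97, 7.02 and 7.02 to 8.16, 7.69 and 7.58, by 0.81 (standard error 0.16, limma adjusted p = 0.00618). *Twsg1*, which modulates BMP binding to chordin, rose from 10.60, 10.38 and 10.34 to 11.06, 10.90 and 11.13, by 0.59 (standard error 0.10, limma adjusted p = 0.00446).

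The other classical BMP antagonists were not called. *Nog*, which encodes noggin, was at -0.45 (standard error 0.28, limma adjusted p = 0.215) with overlapping groups. *Chrd*, the chordin gene, was at -0.05 (standard error 0.08, limma adjusted p = 0.662). *Chrdl1* and *Chrdl2* were below background on all arrays.

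*Fstl1* encodes a follistatin-like glycoprotein whose part as a ligand trap is not settled. By its brightest probe it rose from 7.47, 7.17 and 6.88 to 12.56, 12.37 and 11.92. That is a difference of 5.11 (standard error 0.21, limma adjusted p = 2.21e-05), or 34.6-fold. A second probe on the same transcript gave 5.16, but another, for ENSMUST00000152579, read 6.40, 6.27 and 6.24 against 6.52, 6.76 and 6.65, a difference of 0.34 (limma adjusted p over all probes = 0.0223). With the mean of its probes *Fstl1* was at 3.54. The first 30 bases of the 3 probes, all in lower case, show that the last lies away from the other pair in mm9.
Fstl1, brightest probe, chr16:37836492-37836551: gagtggttttgaaattgcatttgtatttgc
Fstl1, second probe, chr16:37835593-37835652: agattttcctgcataggaaagtgtggaatg
Fstl1, probe for ENSMUST00000152579, chr16:37799498-37799557: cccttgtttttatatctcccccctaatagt
*Fstl4* and *Fstl5* were below background.

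Among the latent TGF-β binding proteins, *Ltbp3* and *Ltbp2* rose and *Ltbp1* and *Ltbp4* were not called. *Ltbp3*, which binds latent TGF-β and has a known role in the skeleton, went from 10.02, 9.92 and 9.94 to 11.62, 11.84 and 11.57. Its difference was 1.71 with standard error 0.09 (limma adjusted p = 5.39e-05), while a dimmer probe gave 0.69. *Ltbp2*, the member that does not bind latent TGF-β, went from 8.05, 8.32 and 8.23 to 10.98, 10.78 and 10.10. The groups stayed apart by 2.42 (standard error 0.23, limma adjusted p = 0.000416). *Ltbp1* was at -0.35 (limma adjusted p = 0.120) and *Ltbp4* at -0.01 (limma adjusted p = 0.974).

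The name rule also took in a pair of genes that are no ligands. *Bmp1* encodes a metalloproteinase that cleaves procollagen and chordin. Its brightest probe rose from 7.00, 7.06 and 6.36 to 10.60, 10.19 and 10.02, by 3.46 (standard error 0.23, limma adjusted p = 0.000114). The other probes, both for NM_009755, rose by 4.63 and by 0.75, so the size of this rise depended on the probe. It was 4.11 with the series matrix values, for which the brightest probe was chosen anew, and 2.95 with the mean of the probes. The first 30 bases of each are given in lower case, with mm9 positions, because they lie in different stretches of the transcripts.
Bmp1, brightest probe, chr14:70886415-70886474: tgtgacatttcctgttgtgaagtaaaagag
Bmp1, probe with a difference of 4.63, chr14:70874370-70874429: aggcccactggctcatcagccacaccaggg
Bmp1, probe with a difference of 0.75, chr14:70890355-70890414: ggcccccacccagtaccgtatctccctgca
*Bmp2k*, a kinase gene first found as BMP2-inducible, rose from 12.10, 12.04 and 12.12 to 12.64, 12.65 and 12.52. This was a small difference of 0.52 (standard error 0.07, limma adjusted p = 0.00161), well outside the spread of the arrays.

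In all, 23 members had more than 1 tested probe, and p-values for single probes were adjusted over all probes. For the 13 of these that were called, 14 of 18 further probes were called in the same direction, and no member had probes called in opposite directions. The remaining 4 were those of *Tgfbr1*, *Bmpr1a* and *Acvr1*. *Bmpr2*, *Smad2* and *Acvr1b* were not called by the probe that stands for them but had a dimmer probe that rose.

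**Figure D3:**
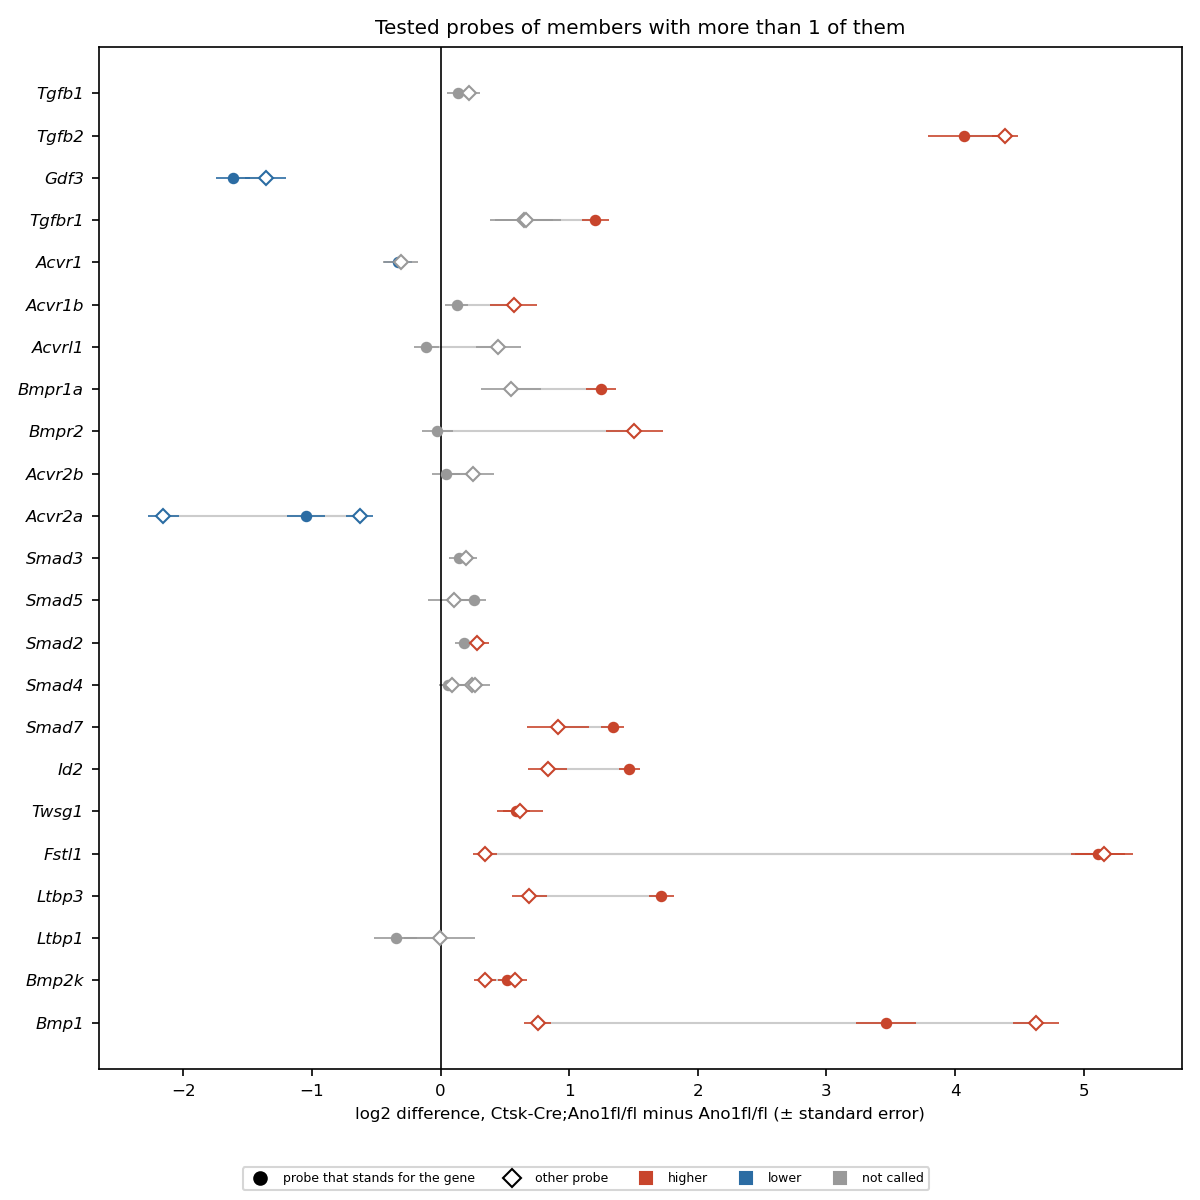
Log2 difference, Ctsk-Cre;Ano1fl/fl minus Ano1fl/fl, with its standard error (x axis) for each tested probe of the 23 members with more than 1 (rows); filled circles are the probes that stand for a gene, open diamonds the others, and colours give the call in the fit over all probes. The probes of Fstl1 run from 0.34 to 5.16, those of Bmp1 from 0.75 to 4.63, and those of Bmpr2 from -0.02 to 1.51.

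Other genes of the pathway that the name rule leaves out were counted from a list of 56 on the array. Of the 45 tested, 21 were higher and 10 lower, 13 of the former and 0 of the latter by more than 2-fold, and the median difference was 0.24. These are 46.7% and 22.2%, and past 2-fold 28.9% and 0% of the list, beside 23.4%, 29.0%, 9.88% and 7.19% of all genes. With the filter on all 6 arrays 28 were called in place of 31. Antagonists outside the rule had 5 higher of 6 tested, target genes of TGF-β 5 higher and 2 lower of 8, and regulators of receptors and Smads 7 higher and 3 lower of 17. Genes that activate latent TGF-β had 2 higher and 3 lower of 7 with a median of -0.36, receptors outside the rule 1 higher and 2 lower of 4, and ligands outside it 1 higher of 3. *Ctgf*, a matrix gene that TGF-β induces, had the largest rise of those measured in both groups and went from 7.90, 7.66 and 7.05 to 13.45, 13.11 and 13.08. Its difference was 5.68 (standard error 0.23, limma adjusted p = 2.19e-05).

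The other list genes with the largest rises were below background on all *Ano1fl/fl* arrays and passed the filter only through the others, so their p-values are no separate support either. *Snai2*, a repressor of epithelial genes, was at least 39.1-fold higher (limma adjusted p = 0.000138). *Bmper*, a secreted regulator of BMPs, was at least 8.68-fold higher (limma adjusted p = 0.000450). *Snai1*, the relative of *Snai2*, was at least 5.60-fold higher (limma adjusted p = 0.000428). These bounds hold for the processed signals: with normexp the log2 differences of *Snai2*, *Bmper* and *Snai1* were 3.16, 1.52 and 1.17, and with the series matrix values 3.97, 2.19 and 1.68.

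**Figure D4:**
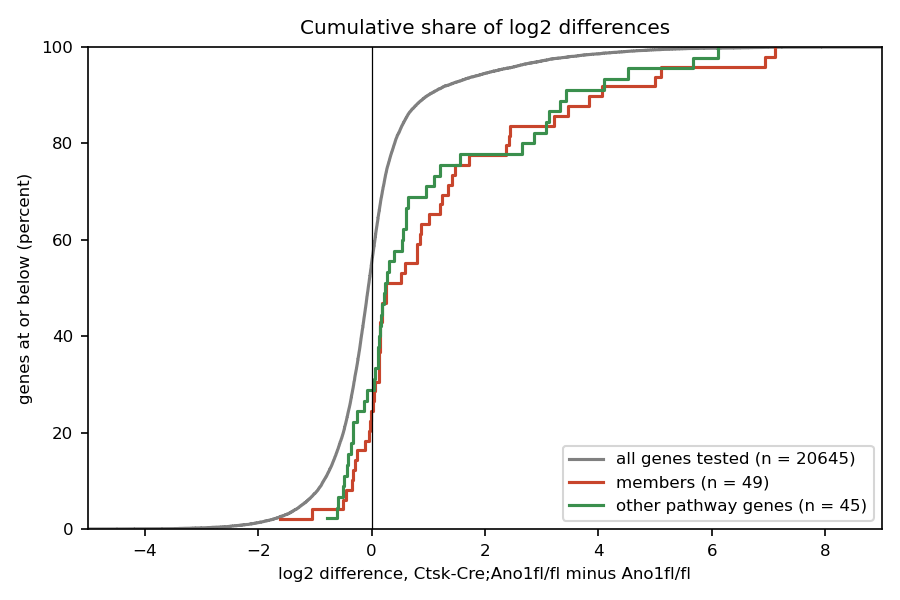
Cumulative share of genes (y axis, percent) at or below a log2 difference, Ctsk-Cre;Ano1fl/fl minus Ano1fl/fl (x axis), for all 20645 genes tested, the 49 members and the 45 other pathway genes. The medians are -0.06, 0.26 and 0.24, and the curves of both lists lie to the right of all genes, most clearly above a difference of 1.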

How the data were processed

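RNA from 3 *Ano1fl/fl* and 3 *Ctsk-Cre;Ano1fl/fl* osteoclast cultures was labelled with Cy3 and read on 1 slide in 1 scan. The authors deposited the scanner output as linear intensity values per spot, made with Agilent Feature Extraction 10.7.1.1, with background subtracted within each array and no normalization between arrays. Their series matrix holds intensities equal to the spot medians (largest difference 0), so the quantile step named in the methods was applied here. Control spots and outlier spots were left out, log2 processed signals were quantile normalised, and spots of a probe were averaged; 14 probes with a missing value were dropped. Each gene was represented by its brightest probe. A probe was well above background where at least 0.5 of its spots were, which on an array held for 33480 to 34951 of 59305 transcript spots.

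Groups were compared with limma 3.58.1 in R 4.3.3 (data.table, version 1.17.8), with p-values adjusted by the Benjamini-Hochberg method over 20645 genes. The fit was tested on simulated data. "At least" folds set the mean of the brighter group against the mean of a floor over the arrays of the other. On each array this floor was the lowest well above background signal of any probe, or the probe's own signal if higher. The methods give 3 mice a group. The number of arrays limits the precision, and 3 against 3 cannot give an exact two-sided permutation p under 0.1. By rule, the genes named were members called with more than 2-fold change, no overlap and a probe well above background throughout the brighter group, the brightest tested member of each role, any member with probes called in opposite directions (there was none), the main TGF-β genes, receptors, Smads and Ids, and the 4 other pathway genes that rose most and the 4 that fell most by those criteria (none fell). Other members were named after their values were seen, to account for their class. The values of 1 member are not reported here; it stays in the counts. The members and lists were chosen with earlier results of these data known.

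Marker lists were also read for macrophages (1 higher, 2 lower of 9 tested), endothelial cells (1 and 1 of 4), megakaryocytes (0 and 4 of 4) and neutrophils (1 and 5 of 8). Symbols are those of the array files, with mm9 positions; 100 of the 125 member probes matched a RefSeq accession, 0 of them under another symbol. Sequences were read and plots drawn with Python 3.11.15, pandas 2.3.3 and matplotlib 3.10.9. Alternatives changed the scaling, background correction, input values, filter, probe summary, test and arrays.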

Additional observations from a re-analysis of the deposited data

How the results depend on the processing

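Of the 28 called members, 25 kept their call under each of the 15 alternatives that tested them. The exceptions were *Acvr1*, *Bmp8a* and *Bambi*, and the cause was not tested. The number of lower members was 2 without a filter on dim probes, 2 with the methods' t-test after Benjamini-Hochberg and 2 with the replicate block, against 4. The share of all genes called lower was smaller under these settings too, at 15.45%, 25.48% and 24.6% against 29.0%. Lower by more than 2-fold were 1 with normexp, 1 with the series matrix and 1 at 3-fold, against 2 (3.23%, 4.01% and 2.64% of all genes, against 7.19%). Higher by more than 2-fold were 13 with normexp, 14 with the series matrix, 14 with the filter on all 6 arrays, 22 at 1.5-fold and 12 at 3-fold, against 18. Over all genes these were 6.37%, 7.69%, 7.00%, 14.7% and 6.92%, against 9.88%. *Tgfb2*, *Inhbb*, *Inhbe*, *Grem1* and *Fst* had smaller differences with normexp, which adds an offset of 50, and with the series matrix, which holds no background subtraction (*Grem1* 5.43 and 5.96 against 6.94, *Fst* 0.56 and 0.95 against 3.22). The median difference of the members was 0.18 without a filter, which tests all 71, 0.18 with the filter on all 6 arrays, which leaves out 4, and 0.48 with the mean of all probes, against 0.26. Leaving out 1 array at a time gave 23 to 24 higher and 2 to 5 lower members, 17 to 18 higher and 1 to 2 lower by more than 2-fold, 27 to 30 other pathway genes and a median of 0.21 to 0.34, with 19.88% to 21.01% of all genes higher and 23.62% to 25.38% lower. Among members that were not called, the sign turned for *Bmpr2* with the mean of all probes (0.74, called higher at a limma adjusted p of 0.00618), and without *Ano1fl/fl* replicate 3 (0.0322) or without *Ctsk-Cre;Ano1fl/fl* replicate 3 (0.0770). It turned for *Tgfbr3l* with 75th percentile scaling (-0.0634) and without *Ano1fl/fl* replicate 3 (-0.0380), and for *Smad4* with 75th percentile scaling (-0.0328). With each array left out in turn, the difference of *Bmpr2* ran from -0.1133 to 0.0770 and that of *Tgfbr3l* from -0.0380 to 0.0641. With the 3 members below background in 1 group at their lower bound, the median stayed at 0.26 and 18 were still more than 2-fold higher with the processed signals.

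Samples with the same replicate number did not deviate together (r = 0.0044, -0.0617 and -0.0808 over genes). With the replicate block 23 members were higher and 2 lower, the calls lost being those of *Bambi*, *Acvr1* and *Bmp8a* (limma adjusted p = 0.0931, 0.0510 and 0.112). Over all genes the replicate block gave 20.34% higher and 24.6% lower. No block for slide or scan was run, since there was 1 of each. Signal over background limits 22 members, for which no difference can be given.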
